A study of Homo sapiens with 60 samples.

Results

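Saengmaek-san and Guibi-tang are Korean herbal decoctions, and the comparison set cells treated with 500 µg/mL of the Saengmaek-san water extract against cells treated with 500 µg/mL of the Guibi-tang water extract. The members were chosen by their labels: 3 libraries of Saengmaek-san and 3 libraries of Guibi-tang, 6 of the 60 libraries in the series. The cells were HepG2, an established human liver cancer line that still expresses many hepatocyte genes, grown without any genetic change and exposed for 24 h. The series sequenced mRNA libraries from cells treated with a set of decoctions and single herbs, most at 500, 100 and 20 µg/mL, with 3 vehicle libraries that the sample labels give as 0.1% DMSO; the series text names another DMSO concentration. The matched Saengmaek-san and Guibi-tang libraries at 100 and 20 µg/mL, 3 per formula and dose, were used to follow the difference down the dose range, and the vehicle libraries were used only for levels. Both decoctions are known to contain ginseng; Saengmaek-san is otherwise known for Schisandra fruit and a lilyturf tuber, and Guibi-tang for a longer list of herbs that includes Astragalus. The labels do not list the herbs. They number the libraries of a group 1 to 3 without saying that they came from separate cultures, and the tests therefore speak only of the variation among the sequenced libraries, which may be technical.

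Liver cells meet plant compounds with several inducible gene programmes. The aryl hydrocarbon receptor (AHR) binds flat aromatic ligands and switches on CYP1A1, the transcription factor NRF2 raises detoxifying and antioxidant enzymes, and the transcription factors TFEB and TFE3 raise lysosome and autophagy genes. Metallothioneins bind zinc and copper and are induced by the metal sensor MTF1, while ATF4 and the unfolded protein response adjust amino acid synthesis and the chaperones of the endoplasmic reticulum.

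The 6 libraries held between 22089475 and 27888819 expected counts. Levels are given as CPM, read counts scaled to the library's total after TMM correction for composition; they are shares of a library, so a lower level and a lower RNA content of the cells cannot be told apart. All 11 liver markers examined, among them ALB, AFP and HNF4A, were above 1 CPM, while DCN, LUM and COL1A2 (fibroblasts), PTPRC and CD3E (leukocytes), and TEK and KDR (endothelium) had no count in any of the 6 libraries, nor had the lung markers NKX2-1, SCGB1A1 and SFTPC. No fibroblast marker passed 1 CPM, and that list summed to 0.671 to 1.2 CPM with Saengmaek-san and 0.518 to 0.698 CPM with Guibi-tang. PECAM1 alone passed 1 CPM in the endothelial list, which summed to 4.62 to 4.89 CPM with Saengmaek-san and 4.1 to 4.36 CPM with Guibi-tang. In the neural list only the tubulin TUBB3 passed 1 CPM, with sums of 214 to 229 CPM with Saengmaek-san and 223 to 254 CPM with Guibi-tang. The leukocyte list, in which LYZ, CD68 and CD14 passed 1 CPM, summed to 1390 to 1510 CPM with Saengmaek-san and 1310 to 1330 CPM with Guibi-tang, and none of its 4 tested genes was called; the part of these markers in the results was not tested. Replicate 3 of each formula had a higher MALAT1 level (441 CPM with Saengmaek-san and 444 CPM with Guibi-tang) than the other 4 libraries (195 to 260 CPM), so this split was balanced at 500 µg/mL. Mitochondrially encoded genes took 9.8% to 11.3% of the counts with Saengmaek-san and 12.3% to 13.6% with Guibi-tang.

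At 500 µg/mL the formulas gave different expression profiles, and most of the larger differences were genes lower with Saengmaek-san. Of 16644 genes tested, 774 were called (4.65%, edgeR's quasi-likelihood test, Benjamini-Hochberg adjusted p under 0.05), of which 296 were higher (1.78%) and 478 lower (2.87%) with Saengmaek-san. The differences were mostly small: the median absolute log2 fold change of the called genes was 0.28, and that of all tested genes was 0.10. At least 2-fold, 3 called genes were higher and 16 were lower, and at least 1.5-fold, 10 were higher and 69 were lower. Among called genes with a symbol, separate libraries and at least 5 CPM in either formula, only CYP1A1, SH2D5 and UAP1L1 passed 2-fold, all lower. The other 2-fold calls lay outside that set, such as RRAGD at 0.716 CPM with Saengmaek-san and 1.53 CPM with Guibi-tang. In 753 of the 774 called genes the 3 libraries of one formula lay entirely above the 3 of the other, a separation seen in 18.5% of all tested genes. The count fell to 392 without Guibi-tang replicate 2, to 404 without Saengmaek-san replicate 1, and to 252 when the spread was estimated from the 6 libraries alone.

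**Figure D1:**
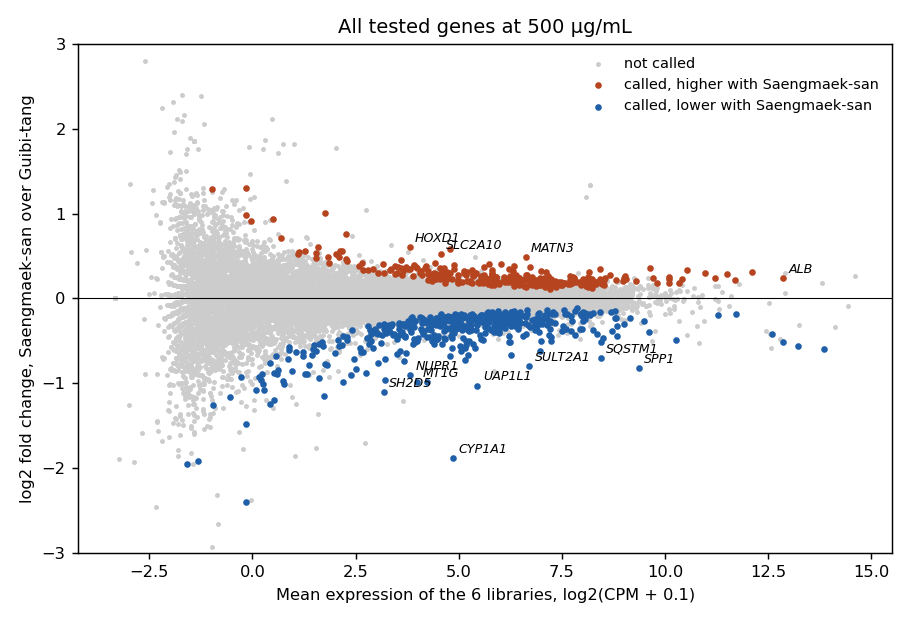
Each point is a tested gene, with its mean level over the 6 libraries at 500 µg/mL on the x axis (log2 of CPM + 0.1) and the log2 fold change of Saengmaek-san over Guibi-tang on the y axis; red genes were called higher and blue genes lower with Saengmaek-san. CYP1A1 at -1.88 stands below all other genes of similar level, and the called points lie farther from 0 below the line than above it; 34 genes, none of them called, lie beyond the axis limits of 3.

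CYP1A1, the drug-metabolising cytochrome that serves as the standard readout of AHR, had the largest difference among genes of at least 5 CPM. It had 12.9, 12.5 and 11.8 CPM in the Saengmaek-san libraries, against 46.9, 44.6 and 46.0 CPM in the Guibi-tang libraries. The vehicle libraries averaged 7.75 ± 0.71 CPM (SD, n = 3), so the level with Guibi-tang stood far above the other groups and no Saengmaek-san library came near it. The log2 fold change was -1.88 ± 0.07 (SE), with an edgeR adjusted p of 1.71e-28. The other AHR targets tested did not pass: ALDH3A1 (0.645 CPM with Saengmaek-san and 1.06 CPM with Guibi-tang on average), TIPARP (log2 fold change -0.14) and AHRR (-0.06), which makes 1 lower and 0 higher of 4 tested, with a median of -0.43 beside -0.0025 over all genes. The RefSeq promoter window of CYP1A1 (GRCh38.p14, chr15:74725479-74725778, minus strand) lies around the start of a gene at chr15:74719542-74725610. It is shown because CYP1A1 had the largest difference among genes of at least 5 CPM. Capitals mark the only match to GCGTG, the core bound by AHR, searched on both strands. A match is also held by 36.5% of 35116 RefSeq promoter windows and by 47.7% of those of tested genes. The part of this match in the difference was not tested.
CYP1A1 promoter: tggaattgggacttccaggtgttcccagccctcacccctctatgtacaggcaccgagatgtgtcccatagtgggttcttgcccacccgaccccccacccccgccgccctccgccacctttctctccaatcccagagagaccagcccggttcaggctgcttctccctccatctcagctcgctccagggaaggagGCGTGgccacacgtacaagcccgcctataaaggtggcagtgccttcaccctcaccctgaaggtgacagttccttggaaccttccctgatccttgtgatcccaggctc

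Single genes for enzymes of conjugation and related pathways differed in either direction. SULT2A1, a liver sulfotransferase for steroids and bile acids, had 71.8, 79.1 and 78.5 CPM with Saengmaek-san, against 139.7, 127 and 132 CPM with Guibi-tang. The vehicle mean of 91.3 CPM lay between the formulas, and the log2 fold change was -0.80 ± 0.05 (edgeR adjusted p = 4.24e-16). UAP1L1, a relative of the enzyme that makes UDP-N-acetylglucosamine, had 29.002, 29.004 and 28.2 CPM with Saengmaek-san, against 61.1, 58.7 and 56.1 CPM with Guibi-tang. Its vehicle mean was 31.3 CPM, near the Saengmaek-san level, and its log2 fold change was -1.03 ± 0.07 (edgeR adjusted p = 9.06e-17). Among the targets of the xenobiotic receptors PXR and CAR, 2 of 9 tested were lower and 0 higher, SULT2A1 and ALAS1 (-0.26, the first enzyme of heme synthesis), with a list median of -0.07 that was -0.19 without Saengmaek-san replicate 1, -0.24 without Guibi-tang replicate 2 and -0.02 without Saengmaek-san replicate 2. UGT2B10, a glucuronidating enzyme, was higher with Saengmaek-san at 68.0, 72.6 and 80.7 CPM, against 54.9, 55.8 and 56.6 CPM with Guibi-tang (log2 fold change 0.40 ± 0.06, edgeR adjusted p = 3.56e-06). It was the only called gene of 6 tested UDP-glucuronosyltransferases, and of 10 ABC drug transporters 1 was higher and 1 lower.

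Many targets of NRF2 were lower with Saengmaek-san. Of 30 tested, 13 were lower (43.3%) and 2 higher, and the median log2 fold change was -0.15. SQSTM1, the autophagy receptor p62 and itself an NRF2 target, had 281, 268 and 246 CPM with Saengmaek-san, against 454, 443 and 399 CPM with Guibi-tang. The vehicle mean was 210.3 CPM, below every library of either formula, and the log2 fold change was -0.70 ± 0.05 (edgeR adjusted p = 2.6e-14). GPX2, a glutathione peroxidase, had 257, 299.5 and 303 CPM with Saengmaek-san, against 405, 417 and 408 CPM with Guibi-tang (log2 fold change -0.52 ± 0.07), and the vehicle mean of 333 CPM lay between the formulas. AKR1B10, an aldo-keto reductase, had 83.3, 81.1 and 74.99 CPM with Saengmaek-san, against 117, 105 and 104 CPM with Guibi-tang (-0.45 ± 0.06), with a vehicle mean of 41.0 CPM. NQO1, the quinone reductase, had 441, 472 and 472 CPM with Saengmaek-san, against 591, 556 and 563 CPM with Guibi-tang (-0.30 ± 0.05), and its vehicle mean was 359 CPM. The ferritin light chain FTL (-0.51), thioredoxin TXN (-0.42), AKR1C2 (-0.43), AKR1C1 (-0.39) and the bile acid exporter ABCC3 (-0.32) were also lower. ABCC3 averaged 60.4 CPM with Saengmaek-san and 75.2 CPM with Guibi-tang, and the vehicle mean was 60.9 CPM, so the position of vehicle differed among the NRF2 targets.

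The list did not move as a block. The glutathione synthesis genes GCLM (41.9 CPM with Saengmaek-san and 44.1 CPM with Guibi-tang) and GCLC did not pass, nor did TXNRD1, SRXN1 or the heme oxygenase HMOX1. HMOX1 had a log2 fold change of -0.14 with a 95% interval of -0.26 to -0.02 and an edgeR adjusted p of 0.213. SLC7A11, the cystine importer, was higher with Saengmaek-san at 64.6, 56.8 and 65.7 CPM, against 43.3, 49.7 and 54.6 CPM with Guibi-tang (log2 fold change 0.34 ± 0.08, edgeR adjusted p = 0.00816). TRIM16L was the other higher member, at 3.59, 3.23 and 3.59 CPM with Saengmaek-san against 2.84, 2.57 and 1.49 CPM with Guibi-tang. The number of higher members fell to 0 without Saengmaek-san replicate 1 or from the 6 libraries alone. It was 1 without Guibi-tang replicate 1 or 3. The number of lower members was 9 without Saengmaek-san replicate 1 and 10 without Guibi-tang replicate 2. It was 10 from the 6 libraries alone and 15 by DESeq2. Near-identical copies such as AKR1C1 and AKR1C2, TRIM16L and TRIM16, and FTL with its pseudogenes, share reads, so the split between them is uncertain.

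Lysosome and autophagy genes were lower with Saengmaek-san in 14 of 28 tested and higher in 0, with a median log2 fold change of -0.19. NEU1, the lysosomal sialidase, had 306, 309.98 and 290.3 CPM with Saengmaek-san, against 451, 418 and 385 CPM with Guibi-tang. The vehicle mean of 335 CPM lay between the formulas, and the log2 fold change was -0.47 ± 0.06 (edgeR adjusted p = 7.91e-08). OPTN, an autophagy receptor, had 21.4, 17.7 and 20.1 CPM with Saengmaek-san, against 29.001, 26.8 and 30.3 CPM with Guibi-tang (-0.54 ± 0.07). CTSA, the protective protein of lysosomal enzymes, averaged 364 ± 8.96 CPM with Saengmaek-san and 473 ± 18.4 CPM with Guibi-tang (SD, n = 3 each; -0.38 ± 0.05). FLCN and FNIP1, which form the complex that controls nutrient signalling at the lysosome, had log2 fold changes of -0.38 and -0.28. RRAGD, a nutrient-sensing GTPase, had the largest member value (-1.08) at a low level of 0.674, 1.02 and 0.448 CPM with Saengmaek-san, against 1.18, 1.29 and 2.12 CPM with Guibi-tang. TFEB (0.02), LAMP1 (-0.12) and CTSB (-0.13) did not pass.

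The lysosome count was 6 without Saengmaek-san replicate 1, 5 when the spread came from the 6 libraries alone, and 9 without the higher MALAT1 libraries. NEU1 and OPTN kept their calls in all 13 alternatives, while RRAGD kept its call in 6 of 12. The RefSeq promoter window of NEU1 (GRCh38.p14, chr6:31862772-31863071, minus strand) is shown as an example of a member with the E-box string TCACGTG. Both strands were searched, and the match is marked in capitals. This string was found in 7 of the 19 lysosome list genes that have a window (36.8%), against 3.7% of all windows and 5.3% of those of tested genes. The list share counts a gene with a match in any of its windows. The other shares count single windows, so the measures are not alike. Of the 7, ATP6V0D1, CTSA, CTSD, FNIP1 and NEU1 were called lower and LAMP1 and MCOLN1 were not; of the 12 genes without a match, CTSL, FLCN, MAP1LC3B, OPTN and WIPI1 were called lower.
NEU1 promoter: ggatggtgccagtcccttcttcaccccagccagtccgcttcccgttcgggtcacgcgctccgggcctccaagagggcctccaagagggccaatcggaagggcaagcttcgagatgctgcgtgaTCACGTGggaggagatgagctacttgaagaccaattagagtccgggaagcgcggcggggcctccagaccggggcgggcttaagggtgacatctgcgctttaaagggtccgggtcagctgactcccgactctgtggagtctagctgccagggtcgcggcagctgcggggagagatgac

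Metallothioneins, small proteins that hold zinc and copper, were far below vehicle with either formula and lower with Saengmaek-san than with Guibi-tang. Of 7 tested, 5 were lower and 0 higher, and the median log2 fold change was -0.73. MT1G had 7.71, 12.1 and 11.9 CPM with Saengmaek-san, against 19.7, 20.3 and 22.6 CPM with Guibi-tang, and the vehicle mean was 59.5 CPM. Its log2 fold change was -0.99 ± 0.17 (edgeR adjusted p = 0.000203). MT2A, the member with the most counts, had 42.1, 65.4 and 70.5 CPM with Saengmaek-san, against 81.1, 96.9 and 103.7 CPM with Guibi-tang, and the vehicle mean was 209.9 CPM (-0.67 ± 0.17, edgeR adjusted p = 0.0115). MT1X had 7.82, 9.46 and 8.88 CPM with Saengmaek-san, against 13.3, 14.3 and 13.6 CPM with Guibi-tang (-0.66 ± 0.14), and the groups did not overlap in any of these members. Summed over the family, the level was 112.1 ± 26.0 CPM with Saengmaek-san, 183.7 ± 15.3 CPM with Guibi-tang and 438.5 ± 13.98 CPM in vehicle (SD, n = 3 each).

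Saengmaek-san replicate 1 was the lowest library for MT1G, MT1E, MT1F, MT1X and MT2A. Without it 2 members remained lower, and without Guibi-tang replicate 2 the number was 3, as it was from the 6 libraries alone. MT1E and MT2A lost their calls in all of these, while MT1G and MT1X kept theirs in all 13 alternatives. Members of the family are near-identical, so reads may be split between them with error. The windows of MT2A (chr16:56608334-56608633, plus strand) and MT1X (chr16:56682220-56682519, plus strand) are printed because metal response elements repeat in them. Capitals mark matches to TGCACNC or TGCGCNC on either strand, 8 in MT2A and 4 in MT1X. At least 1 match is held by 29.6% of all windows and by 36.5% of those of tested genes.
MT2A promoter: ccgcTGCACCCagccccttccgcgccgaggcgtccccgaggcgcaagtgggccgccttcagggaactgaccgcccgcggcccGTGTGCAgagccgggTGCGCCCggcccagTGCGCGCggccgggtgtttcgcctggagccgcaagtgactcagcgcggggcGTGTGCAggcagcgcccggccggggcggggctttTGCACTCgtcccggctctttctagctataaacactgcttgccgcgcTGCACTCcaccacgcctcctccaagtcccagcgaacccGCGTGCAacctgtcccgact
MT1X promoter: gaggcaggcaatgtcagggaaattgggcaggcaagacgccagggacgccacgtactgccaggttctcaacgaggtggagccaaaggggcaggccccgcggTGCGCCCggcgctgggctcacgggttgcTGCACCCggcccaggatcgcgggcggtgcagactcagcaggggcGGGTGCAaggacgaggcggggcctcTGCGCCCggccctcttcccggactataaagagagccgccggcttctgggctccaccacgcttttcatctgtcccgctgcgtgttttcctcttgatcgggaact

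Some genes of the zinc transporter families differed the other way. Of 18 tested in the list of zinc transporters and MTF1, 5 were higher with Saengmaek-san and 0 lower (median log2 fold change 0.13). SLC39A4, the importer of dietary zinc, had 148, 145 and 132 CPM with Saengmaek-san, against 115, 124 and 101 CPM with Guibi-tang (0.32 ± 0.07, edgeR adjusted p = 0.00167). SLC30A10, a manganese exporter from another transporter family on the list, had 18.6, 17.5 and 16.7 CPM with Saengmaek-san, against 13.0, 13.9 and 14.3 CPM with Guibi-tang (0.36 ± 0.07). SLC39A14 (0.24), SLC39A5 (0.30) and SLC39A7 (0.14) were the others, whereas SLC30A1, a zinc exporter that MTF1 induces, averaged 75.6 CPM with Saengmaek-san and 76.3 CPM with Guibi-tang. The count was 2 without Saengmaek-san replicate 1 or Guibi-tang replicate 2, 3 without Saengmaek-san replicate 2, and 8 by DESeq2.

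**Figure D2:**
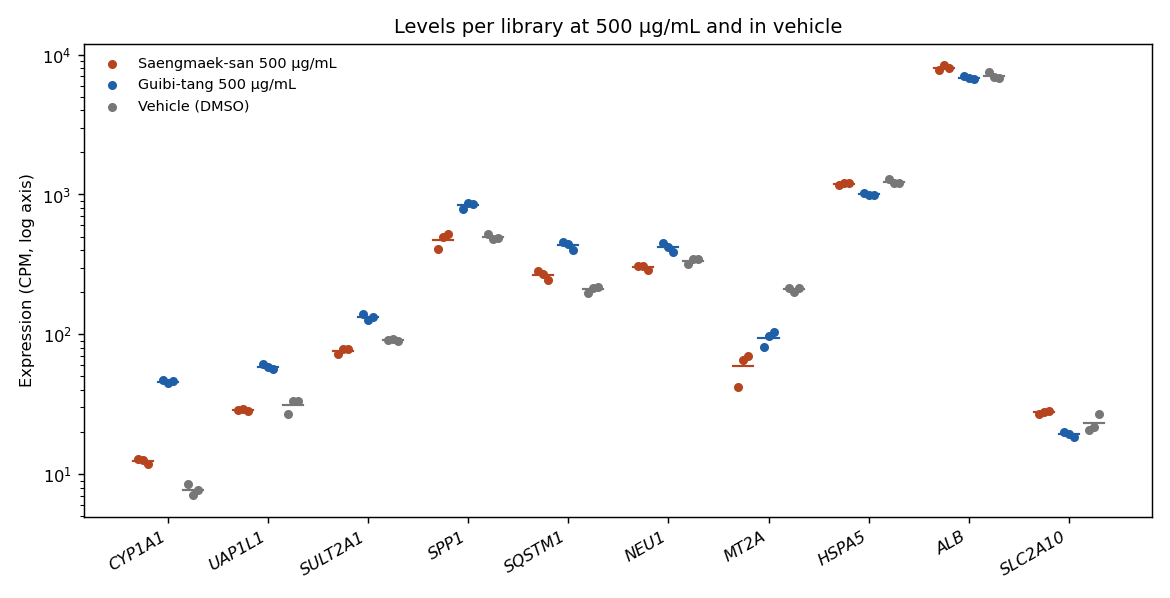
Levels of 10 genes in each library at 500 µg/mL and in vehicle, in CPM on a log axis; for each gene the left, middle and right points are Saengmaek-san, Guibi-tang and vehicle, and the short line is the mean of 3 libraries. CYP1A1 stands out with Guibi-tang alone (45.8 CPM on average, against 12.4 CPM with Saengmaek-san), while MT2A lies below vehicle with both formulas.

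The next genes are single genes lower with Saengmaek-san, and most members of the lists they belong to were not called. SPP1, the secreted phosphoprotein osteopontin, had 405, 494 and 519 CPM with Saengmaek-san, against 782, 868 and 861 CPM with Guibi-tang. The vehicle mean of 495 CPM lay within the Saengmaek-san range, and the log2 fold change was -0.82 ± 0.08 (edgeR adjusted p = 3.65e-10). AREG, an EGFR ligand, had 3.56, 3.86 and 4.66 CPM with Saengmaek-san, against 6.61, 7.46 and 7.37 CPM with Guibi-tang (-0.84 ± 0.12). ICAM1, an adhesion molecule induced by NF-kB, had 123.3, 121.4 and 129.4 CPM with Saengmaek-san, against 163, 169 and 171 CPM with Guibi-tang (-0.43 ± 0.05), and was the only called gene of 11 in the NF-kB list (median -0.12). GDF15, a stress cytokine, had 111, 134 and 134 CPM with Saengmaek-san, against 161, 191 and 165 CPM with Guibi-tang (-0.45 ± 0.09). ANKRD1, a YAP target, averaged 21.3 CPM with Saengmaek-san and 34.0 CPM with Guibi-tang (-0.68 ± 0.10). SH2D5, an adaptor protein, had 5.76, 5.71 and 5.52 CPM with Saengmaek-san, against 13.7, 12.5 and 10.5 CPM with Guibi-tang (-1.11 ± 0.11). Of 14 EGFR ligands and MAPK feedback genes 2 were lower and 1 higher (median -0.04), of 15 YAP and actin targets 2 were lower and 0 higher (median -0.13), and of 23 p53 targets 3 were lower and 1 higher (median 0.03). Among the genes named here, SPP1, AREG, SH2D5, ICAM1 and ANKRD1 had a vehicle mean (495, 4.53, 5.34, 117 and 24.1 CPM) close to the Saengmaek-san level. The vehicle mean of GDF15 (98.0 CPM) lay below both formulas.

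The stress programmes of amino acid shortage and of the endoplasmic reticulum split. Of 20 ATF4 targets, 5 were higher and 2 lower with Saengmaek-san, around a median of 0.00. The higher members make amino acids or one-carbon units: ASNS (asparagine synthetase), GPT2, MTHFD2, PHGDH and PSAT1. ASNS had 32.7, 34.0 and 34.0 CPM with Saengmaek-san, against 26.0, 26.1 and 24.7 CPM with Guibi-tang, and the vehicle mean was 31.4 CPM (0.39 ± 0.07, edgeR adjusted p = 4.47e-05). The lower members were NUPR1, a stress-induced chromatin protein, and DDIT3, the factor CHOP. NUPR1 had 7.63, 10.8 and 11.1 CPM with Saengmaek-san, against 19.1, 18.2 and 17.6 CPM with Guibi-tang (-0.90 ± 0.11). ATF4 itself (-0.13) and TRIB3 (-0.17) did not pass. DDIT3 (-0.42) kept its call in 6 of 13 alternatives; 3 members were higher from the 6 libraries alone, and 1 was lower without any 1 of the 3 Guibi-tang replicates or without Saengmaek-san replicate 3.

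Endoplasmic reticulum chaperones were higher with Saengmaek-san in 7 of 19 tested and lower in 0 (median 0.14). HSPA5, the master chaperone BiP, had 1166 CPM, 1214 CPM and 1199 CPM with Saengmaek-san, against 1020 CPM, 987 CPM and 995 CPM with Guibi-tang. The vehicle mean was 1234 CPM, so the Guibi-tang libraries lay below the other groups (log2 fold change 0.25 ± 0.04, edgeR adjusted p = 6.29e-06). HYOU1 (404 ± 5.27 CPM with Saengmaek-san and 342 ± 8.01 CPM with Guibi-tang), PDIA4, SEL1L, HSP90B1, DNAJC3 and CRELD2 were the other members, with log2 fold changes of 0.18 to 0.35. XBP1 (-0.03) and HERPUD1 (-0.07) did not pass, and 0 of 18 cytosolic heat shock genes were called. The count was 4 from the 6 libraries alone.

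Among structural and growth genes, tubulins were lower in 5 of 11 tested and higher in 0, with a median of -0.19. TUBB2B had 11.5, 13.4 and 12.6 CPM with Saengmaek-san, against 19.1, 18.03 and 15.3 CPM with Guibi-tang (-0.48 ± 0.10), and TUBA1A had 22.2, 24.4 and 25.3 CPM with Saengmaek-san, against 31.9, 31.7 and 33.7 CPM with Guibi-tang (-0.44 ± 0.07). TUBB, TUBA1B and TUBB4B, the main tubulins of dividing cells, had values of -0.01 to -0.03 and did not pass. In the list of G2 and mitosis genes 5 of 25 were higher and 0 lower (median 0.11); TOP2A, the DNA topoisomerase of dividing cells, had 589, 559 and 573 CPM with Saengmaek-san, against 477, 486 and 510.2 CPM with Guibi-tang (0.22 ± 0.05). In the DNA replication list 3 of 25 were higher (median 0.08).

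These 3 counts depended on single libraries. The tubulin count was 3 without Saengmaek-san replicate 1, Guibi-tang replicate 1 or Guibi-tang replicate 2. The mitosis count was 2 without Guibi-tang replicate 1 or 2, 3 without Saengmaek-san replicate 2, and 0 from the 6 libraries alone. The replication count was 0 without Saengmaek-san replicate 1 or Guibi-tang replicate 2, 1 without Saengmaek-san replicate 2, 5 without Guibi-tang replicate 1, and 7 without Saengmaek-san replicate 3.

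All 13 mitochondrially encoded mRNAs had negative fold changes, between -0.60 and -0.32, and 4 were called lower. MT-ND4, a complex I subunit, had 10884 CPM, 11369 CPM and 12824 CPM with Saengmaek-san, against 18283 CPM, 20316 CPM and 14506 CPM with Guibi-tang. The libraries did not overlap, the vehicle mean was 19624 CPM, and the log2 fold change was -0.60 ± 0.17 (edgeR adjusted p = 0.0279). The number called was 0 without Saengmaek-san replicate 1, Guibi-tang replicate 1 or Guibi-tang replicate 2, 1 without Saengmaek-san replicate 2, and 13 with no filter on low counts. Nuclear genes for the respiratory chain (median -0.12) and cytosolic ribosomal proteins (median -0.11) had a negative value in 67 of 75 and 67 of 77 members, but 0 of either list were called. Without Saengmaek-san replicate 1 these medians were -0.01 and 0.02, and with no filter 17 and 19 members were called lower.

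Lipid genes differed in a few members. In the cholesterol list 4 of 26 were lower and 0 higher (median -0.12); SC5D (-0.25), DHCR7 (-0.20) and FDFT1 (-0.16), all enzymes of sterol synthesis, were among the lower members. That count was 1 without Guibi-tang replicate 1 or 2, 2 without Saengmaek-san replicate 1, and 0 from the 6 libraries alone. ACSS2, which makes acetyl-CoA from acetate, had 106.5, 108 and 95.3 CPM with Saengmaek-san, against 136, 133 and 127 CPM with Guibi-tang (-0.36 ± 0.04, edgeR adjusted p = 3.8e-08). CPT1A, the gate of mitochondrial fatty acid oxidation, had 55.8, 53.1 and 51.5 CPM with Saengmaek-san, against 67.6, 73.6 and 72.2 CPM with Guibi-tang, and PLIN2, a lipid droplet coat protein, had 154, 168 and 169 CPM with Saengmaek-san, against 192, 213 and 209 CPM with Guibi-tang. The vehicle means of CPT1A (43.3 CPM) and PLIN2 (115 CPM) lay below every library of both formulas. Of 16 PPARA targets and fatty acid oxidation genes, 2 were lower and 1 higher (median -0.05). Of 15 fatty acid synthesis genes, 2 were lower and 0 higher (median -0.07).

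Markers of the liver cell were higher with Saengmaek-san in a few members. ALB, serum albumin, had 7824 CPM, 8363 CPM and 7994 CPM with Saengmaek-san, against 6977 CPM, 6820 CPM and 6739 CPM with Guibi-tang (0.24 ± 0.05, edgeR adjusted p = 0.000599). AFP, the fetal counterpart of albumin, had 2931 CPM, 3324 CPM and 3319 CPM with Saengmaek-san, against 2587 CPM, 2618 CPM and 2645 CPM with Guibi-tang (0.29 ± 0.05), and TF, transferrin, differed by 0.24. These 3 were the called members of 22 secreted liver proteins (median 0.08). Of the 22, 14 had a positive fold change and 8 a negative one, down to -0.52. The count of higher members was 5 without Saengmaek-san replicate 1 and 1 from the 6 libraries alone. With no filter 4 were higher and 2 lower, and from the 6 libraries with a replicate block 2 were higher and 2 lower. Among 12 urea cycle and glutamine enzymes, GLUD1 (0.26) and CPS1 (0.26) were higher, and ASS1 (-0.40) and GLUL (-0.23) were lower. The other 8 were not called, and the list median was 0.11. ASS1 had 50.9, 53.7 and 52.0 CPM with Saengmaek-san, against 69.8, 70.8 and 65.8 CPM with Guibi-tang. CPS1 lost its call without Saengmaek-san replicate 1 or Guibi-tang replicate 2. None of the 12 tested members of the liver transcription factor list or the 14 of the bile acid list was called. The called genes SULT2A1 and ABCC3 (lower) and AKR1D1 (higher) also act on bile acids or their synthesis, but were not in that list.

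The other genes higher with Saengmaek-san belonged to no single list. SCN1A, a sodium channel, had 35.3, 31.3 and 31.8 CPM with Saengmaek-san, against 21.6, 20.5 and 23.6 CPM with Guibi-tang (0.58 ± 0.08, edgeR adjusted p = 3.88e-07). MATN3, a matrix protein, had 110.4, 116 and 118 CPM with Saengmaek-san, against 84.2, 79.2 and 82.3 CPM with Guibi-tang (0.49 ± 0.05, edgeR adjusted p = 5.15e-09). SLC2A10, the transporter GLUT10, had 26.9, 28.0 and 28.3 CPM with Saengmaek-san, against 20.0, 19.4 and 18.4 CPM with Guibi-tang (0.52 ± 0.07). HOXD1, a homeobox factor, averaged 16.8 CPM with Saengmaek-san and 11.1 CPM with Guibi-tang (0.61 ± 0.09), and AKR1D1, which reduces steroids for bile acid synthesis, averaged 13.8 CPM with Saengmaek-san and 10.1 CPM with Guibi-tang (0.45 ± 0.08). The vehicle mean of SCN1A (32.1 CPM) and of AKR1D1 (15.97 CPM) was near or above the Saengmaek-san level.

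**Figure D3:**
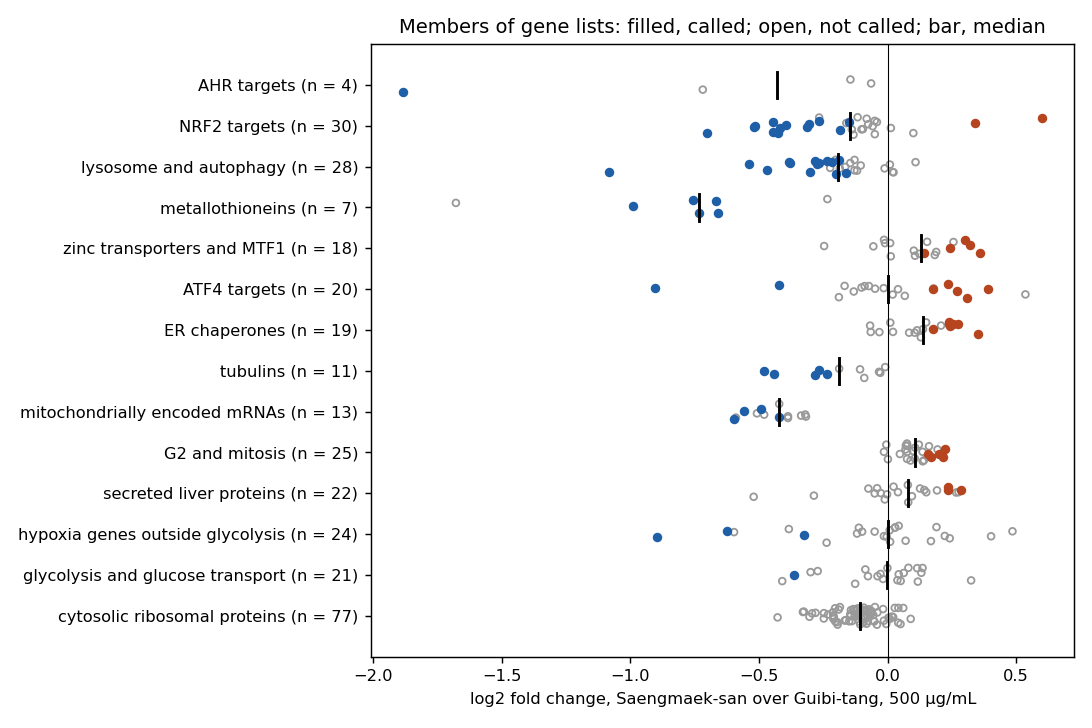
Log2 fold changes at 500 µg/mL of the tested members of 14 gene lists, Saengmaek-san over Guibi-tang; filled points were called (red higher, blue lower with Saengmaek-san), open points were not, and the black bar is the list median. The called NRF2, lysosome, metallothionein and tubulin members lie to the left except for 2 NRF2 genes, and the called chaperone and zinc transporter members lie to the right.

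Some genes far from vehicle with both formulas did not separate them. IGFBP1, an insulin-repressed binding protein, had 125, 167 and 152 CPM with Saengmaek-san, against 110.2, 183 and 161 CPM with Guibi-tang, and the vehicle mean was 26.5 CPM. The ranges overlapped, and the log2 fold change was -0.04 with a 95% interval of -0.46 to 0.39. CA9, a carbonic anhydrase induced by hypoxia, had 6.17, 14.4 and 12.8 CPM with Saengmaek-san, against 6.21, 15.6 and 13.7 CPM with Guibi-tang (95% interval -0.83 to 0.61), with a vehicle mean of 1.39 CPM; replicate 1 was the lowest library of both formulas. G6PC1, the last enzyme of glucose release, had a log2 fold change of 0.20 with an interval of -0.15 to 0.55, and HAMP, hepcidin, had -0.05 with an interval of -0.31 to 0.21. Among 24 hypoxia genes, LOXL2, BHLHE40 and MXI1 were lower and 0 higher (median 0.00). MXI1 kept its call in 4 of 13 alternatives, and with no filter 2 members were higher. With a replicate block over 57 libraries 3 members were higher and 4 lower. Among 21 genes of glycolysis and glucose transport ENO2 was lower (-0.36). These intervals do not show that the formulas act alike. The gap of IGFBP1 and CA9 to vehicle was already present at 20 µg/mL and did not rise steadily with dose. IGFBP1 averaged 82.6 CPM with Saengmaek-san and 83.6 CPM with Guibi-tang at 20 µg/mL, and 62.2 and 70.9 CPM at 100 µg/mL. CA9 averaged 8.82 and 8.95 CPM at 20 µg/mL, and 5.82 and 6.50 CPM at 100 µg/mL, in the same order.

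For the 478 genes lower with Saengmaek-san, the vehicle mean lay between the formula means in 267, below both in 143 and above both in 68. For the 296 higher genes it lay between in 174, below both in 43 and above both in 79. By distance, the vehicle mean was nearer to the Saengmaek-san mean in 290 of the 478 lower genes and in 172 of the 296 higher genes. These are counts of levels, without a test against vehicle. The vehicle columns have the first code B1 and the columns of both formulas the first code 6. The part of this difference in levels beside vehicle was not tested.

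The difference between the formulas was dose-dependent. At 100 µg/mL, 15 genes were called (0.0901%), 3 higher (0.018%) and 12 lower (0.0721%) with Saengmaek-san, and 1476 had an unadjusted p under 0.05. The libraries of the formulas were separate in 14 of the 15, beside 9.72% of all tested genes. CYP1A1 had 7.18, 7.54 and 7.90 CPM with Saengmaek-san, against 12.8, 12.7 and 13.0 CPM with Guibi-tang (log2 fold change -0.77 ± 0.08, edgeR adjusted p = 3.8e-09). UAP1L1 (-0.35), SULT2A1 (-0.33) and NABP1 (-0.34, a single-stranded DNA binding protein) were also lower, and ASNS (0.36), SH3BP2 (0.26, a signalling adaptor) and ASF1B (0.26, a histone chaperone) were the 3 higher genes. ASNS had 33.8, 32.2 and 32.01 CPM with Saengmaek-san, against 24.9, 27.5 and 24.1 CPM with Guibi-tang. Leaving out a Saengmaek-san library at that dose gave 2 calls (replicate 1), 6 (replicate 2) or 33 (replicate 3). The higher MALAT1 level was found in 1 of 3 Saengmaek-san and 2 of 3 Guibi-tang libraries at 100 and at 20 µg/mL. A fit without those libraries leaves 1 Guibi-tang library at 100 µg/mL, so its count is not given.

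At 20 µg/mL edgeR called 0 genes (0%), with 411 at an unadjusted p under 0.05, and DESeq2 also called 0; the libraries of the formulas were separate in 6.25% of all tested genes. CYP1A1 averaged 7.72 ± 0.61 CPM with Saengmaek-san and 8.47 ± 0.25 CPM with Guibi-tang at this dose (SD, n = 3 each), with a log2 fold change of -0.13. The difference at 500 µg/mL was unlike that at 20 µg/mL in 192 genes by the test of formula by dose (1.15%), 54 in the positive (0.324%) and 138 in the negative direction (0.829%). The CYP1A1 term was -1.75 ± 0.11 (edgeR adjusted p = 8.96e-18), and those of UAP1L1 (-0.97), SULT2A1 (-0.78) and SQSTM1 (-0.74) had adjusted p-values of 5.34e-10, 5.34e-10 and 1.92e-09. MT2A (-0.59, adjusted p = 0.315) and ASNS (0.25, adjusted p = 0.239) did not pass; ASNS already differed at 100 µg/mL. The count was 98 without Guibi-tang 500 replicate 2, 127 without Saengmaek-san 500 replicate 1, 115 without Saengmaek-san 20 replicate 1 and 119 without Guibi-tang 20 replicate 2. A fit without the higher MALAT1 libraries leaves 1 Guibi-tang library at 20 µg/mL, so no count is given for it.

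**Figure D4:**
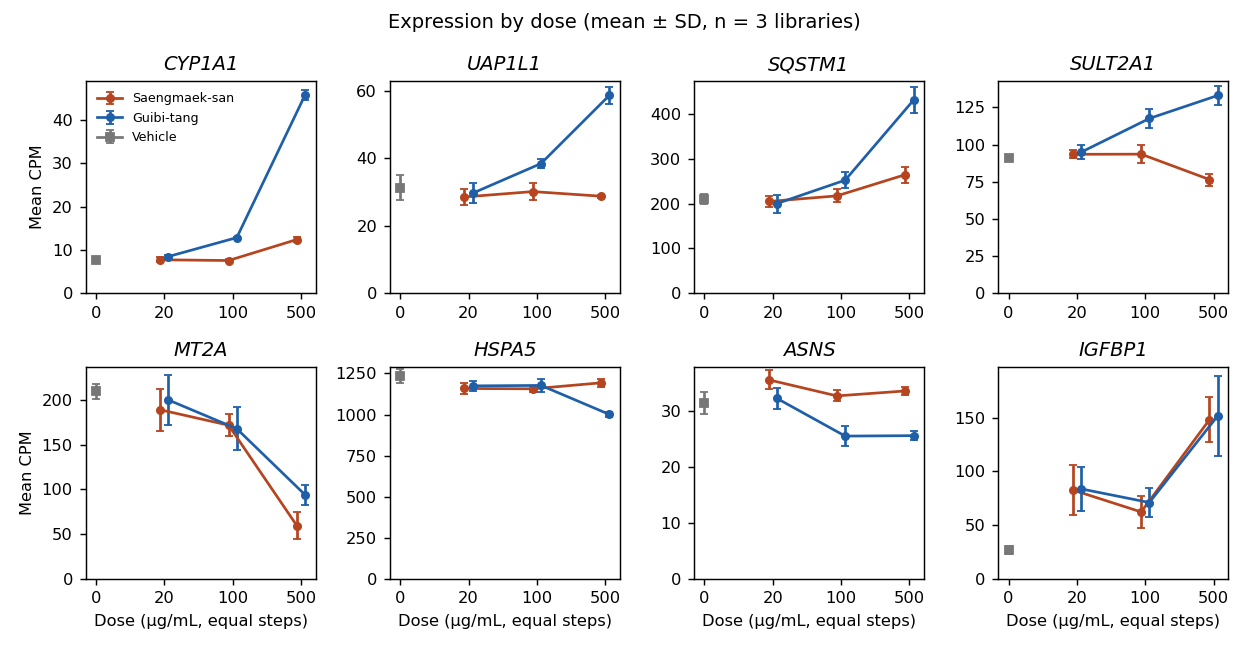
Mean CPM ± SD (n = 3 libraries) of 8 genes by dose in µg/mL, at equal steps on the x axis, for Saengmaek-san (red) and Guibi-tang (blue), with vehicle (grey) at 0. The CYP1A1, UAP1L1 and SQSTM1 lines part at 100 to 500 µg/mL, whereas the IGFBP1 lines stay together, at 148 CPM with Saengmaek-san and 151.5 CPM with Guibi-tang at 500 µg/mL.

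The genes that separated the formulas at the top dose, 774 in all, were followed in the libraries of the lower doses, which are separate. At 100 µg/mL, 572 of them (73.9%) had the same sign, beside 54.5% of all tested genes, and 11 of the 15 calls at that dose were also calls at 500 µg/mL in the same direction (1.42% of the 774 and 73.3% of the 15). At 20 µg/mL, 400 (51.7%) had the same sign, beside 50.7% of all tested genes. Signed by the direction at 500 µg/mL, the median difference was 0.003 at 20 µg/mL and 0.05 at 100 µg/mL.

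**Figure D5:**
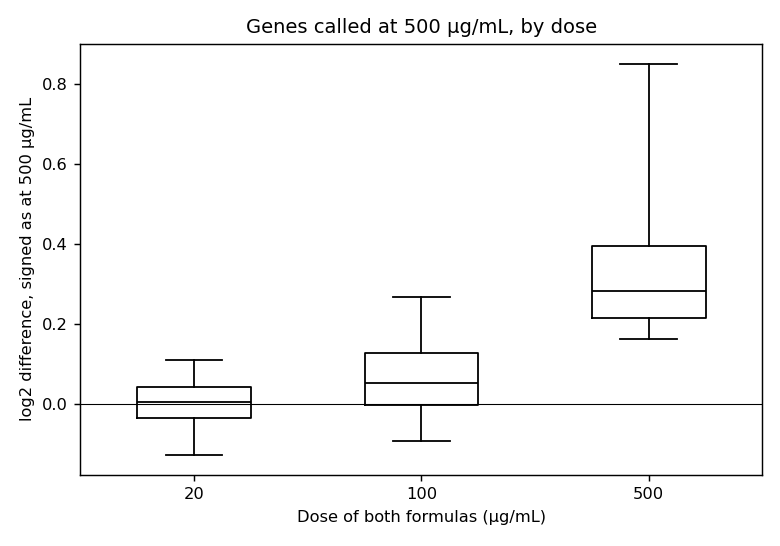
Log2 differences by dose (µg/mL) of the 774 genes that passed at the top dose, each given the sign it had there; boxes span the quartiles with the median line, and whiskers span the 5th to the 95th percentile. The box at 20 µg/mL is centred on 0 and the one at 100 µg/mL slightly above it, with medians of 0.003 and 0.05; the box at 500 µg/mL is above 0 because the genes were chosen there.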

How the data were processed

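Total RNA from HepG2 cells was made into directional mRNA libraries and read as paired ends, per the labels' protocols. The deposited table holds RSEM expected counts for 60675 genes in 60 libraries; per the submitters' processing notes, FastQC 0.11.9, Trim Galore 0.6.5, STAR 2.7.3a, RSEM 1.3.3 and GRCh38 were used. Whether RSEM counted by strand is not given in the sources used here, so overlapping and antisense genes may share counts. Columns were mapped by the code in each label. Library totals ran from 20446542 to 32386486, and gene symbols came from a name table (41209 IDs) or from GENCODE release 29 alone (15846 IDs); genes without a symbol held 0.047% of counts.

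Expected counts were rounded to whole numbers. Genes were kept with edgeR's filterByExpr (minimum count 10), which left 16644, and tested with edgeR 4.0.16 in R 4.3.3 by the quasi-likelihood test after TMM scaling. The fit held 57 libraries in 19 groups that shared 1 estimate of the spread (common dispersion 0.00345); groups of a single library were left out. P-values were adjusted by Benjamini-Hochberg over all genes in each of 4 comparisons, with calls at 0.05. The script was tested on simulated data.

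The alternatives were RLE scaling, no filter, DESeq2 1.42.0, fits of only the groups compared, replicate blocks, leaving out the libraries of higher MALAT1 and leaving out each library in turn; their use on the gene lists was chosen after seeing the data. Genes were named as the 12 of largest change each way among called genes with at least 5 CPM and separate libraries, the 3 largest called members of each list, the largest at the other doses and in the test of formula by dose, and a short set of reference genes; further list members are given as list values, chosen after their values were seen. The members and lists were chosen with earlier results of these data known. No duplicate libraries were found: replicates differed by 4.36 to 16.2 times counting noise at 500 µg/mL (chi-square per degree of freedom). Promoter windows are from RefSeq (GRCh38.p14). Plots were drawn with matplotlib from the result tables. A few list members are counted but not reported here by name.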

Additional observations from a re-analysis of the deposited data

Results flagged for a closer look

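In 48 named genes the difference of Saengmaek-san from Guibi-tang at 500 µg/mL was itself unlike the difference at 20 µg/mL, by edgeR's test of formula by dose (adjusted p under 0.05). The values are the log2 fold change of Saengmaek-san over Guibi-tang at 500 µg/mL minus that at 20 µg/mL. Of the 192 genes with this call, 138 had a negative value.

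Genes that metabolise foreign compounds, together with the other genes of largest change, were CYP1A1 (-1.75), UAP1L1 (-0.974), SULT2A1 (-0.778), SH2D5 (-1.34), SLC7A5P2 (-1.3), TRIM50 (-1.03), RAB3IL1 (-0.972), S100A11 (-0.804), SECTM1 (-0.789) and LINC02365 (-0.763). SLC7A5P2, a pseudogene, was not called at 500 µg/mL itself (log2 fold change -0.60, adjusted p = 0.0951); its value at 20 µg/mL was 0.70. NRF2 targets and autophagy or lysosome genes were SQSTM1 (-0.737), GPX2 (-0.432), AKR1B10 (-0.354), ABCC3 (-0.35), OPTN (-0.54) and NEU1 (-0.489). Of the metallothioneins MT1G (-0.933) and MT1X (-0.677) passed. Further genes with a negative value were NUPR1 (-0.879), AREG (-0.876), SPP1 (-0.725), ANKRD1 (-0.696), BHLHE40 (-0.622), ICAM1 (-0.469) and KLF6 (-0.295). The tubulins were TUBB2B (-0.633), TUBA1A (-0.476) and TUBB2A (-0.332). Metabolic enzymes and lipid genes with a negative value were ASS1 (-0.421), ENO2 (-0.419), ACSS2 (-0.371), CPT1A (-0.358) and PLIN2 (-0.341).

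Positive values were found in liver genes, ALB (0.249), TF (0.252), AFP (0.282), ITIH3 (0.237), GLUD1 (0.235), UGT2B10 (0.419) and AKR1D1 (0.46), and in HSPA5 (0.273), TOP2A (0.269), COL4A6 (0.435), SLC2A10 (0.463), MATN3 (0.491), RIC8B (0.495), HOXD1 (0.538) and SCN1A (0.569). The libraries of higher MALAT1 are spread unequally over the formulas at 20 µg/mL. A fit without them leaves 1 Guibi-tang library at that dose, so the part of that split in these values was not tested.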

How the results depend on the processing

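No named gene called at 500 µg/mL changed direction under the alternatives that could be fitted. Without a call, the fold changes of G6PC1, IGFBP1, HAMP, CA9, MALAT1, KCNQ1OT1 and SH3BP2 changed sign in at least 1 alternative. So did the medians of the hypoxia, glycolysis, gluconeogenesis, PPARA, ATF4, interferon, acute phase, bile acid, liver transcription factor, ribosomal protein (-0.11 became 0.02 without Saengmaek-san replicate 1), IGF, circadian and noncoding RNA lists. Of 105 named genes called at 500 µg/mL, 49 kept their call and direction in all alternatives that could be fitted. Changing TMM to RLE scaling moved the median log2 fold change of all genes by 0.00271. The 774 calls at 500 µg/mL became 252 in the fit of only the 6 libraries (239 of them shared with the 774), and 392 to 847 when 1 library was left out. The 15 calls at 100 µg/mL became 227 with no filter, 38 by DESeq2, 31 without the libraries of higher MALAT1, 1 in the fit of only the groups compared, and 2 to 33 when 1 library was left out. The 0 calls at 20 µg/mL became 71 with no filter and stayed at 0 when any 1 library was left out. The 192 calls of the test of formula by dose became 380 with no filter, 37 in the fit of only the groups compared, 24 without the libraries of higher MALAT1, and 98 to 214 when 1 library was left out. The cause of these changes was not tested, except that the fits of only the groups compared hold fewer libraries to estimate the spread.

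The replicate numbers were not shown to pair the libraries: at 500 µg/mL same-numbered libraries correlated at 0.112, 0.0767 and 0.158 in their deviations from the group means, each best with its own number, and at 100 and 20 µg/mL replicate 2 did not (-0.0118 and -0.0587). With a replicate block, the fit of only the 6 libraries gave 591 calls at 500 µg/mL, 1 at 100 µg/mL, 3 at 20 µg/mL and 155 for formula by dose, and a block within the first code number over 57 libraries gave 1008, 49, 0 and 261 calls. With 3 libraries a group, a gene without a call may still differ.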
